A study of Rattus norvegicus with 6 samples.

Results

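Egr, Klf and other immediate-early genes are the genes that cells switch on first, without new protein synthesis, when a growth factor or a stress reaches them. In rat nucleus pulposus cells (NPCs) treated with TBHP and FGF21, the transcripts of Egr1, Btg2 and Csrnp1 were 1.26 to 1.32 times as high as with TBHP alone, with every library of the 1 group above every library of the other, and that of Ier3 was lower on average (0.729 times), but no member of the family passed the test over all genes. The 10 genes were chosen by symbol from the growth-factor-induced early genes outside the AP-1 and Nr4a families, and the choice was made with results of this same comparison known, so their values are given as a description. Of these, 8 (Egr1, Egr2, Egr3, Ier3, Btg2, Csrnp1, Klf4 and Zfp36) had a row among the 20264 rows of the combined count table, and all 8 passed the filter on low counts together with the rest of the 11426 genes tested. Ier2 and Klf2 were not analysed here.

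Primary NPCs, the cells of the gel-like core of the intervertebral disc, came from the tails of wild type male Sprague-Dawley rats. The TBHP group (n = 3) received tert-butyl hydroperoxide, an oxidant used to drive these cells into senescence, and the TBHP+FGF21 group (n = 3) received the same oxidant together with recombinant FGF21, a secreted hormone of the fibroblast growth factor family. No untreated group and no group with FGF21 alone was among the libraries, so every value below is a level under TBHP. The paper's main text gives no exposure time for these libraries. Whether the levels are early or late after FGF21 cannot be told from it. Libraries are named T1, T2 and T3 for replicates 1 to 3 of the TBHP group and F1, F2 and F3 for those of the TBHP+FGF21 group, as in their titles. The treatment labels of F2 and F3 read FGF22 and FGF23 in place of FGF21, and the titles and the design text, which put all 3 under FGF21, were used for the grouping.

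The libraries held 18277732 to 22426190 counts, so that 3 counts, the limit that a count of 0 allows, lay between 0.134 and 0.164 CPM (read counts scaled to the size of the library). F2 and, less so, T3 stood apart from their own groups. Across genes the Spearman's rho of F2 was 0.996 with each of the TBHP libraries and 0.989 to 0.992 with the other 2 of its group, whereas F1 and F3 had 0.995 with each other and 0.985 to 0.989 with T1 and T2. T3 had a rho of 0.993 with T1 and with T2 and of 0.994 with F1. The members are therefore given with and without F2, and with and without T3 for their counts and fold changes, and the calls of the other lists with and without F2. The label of the cells was checked against marker genes. Acan, the large disc proteoglycan, averaged 2709 ± 218 CPM under TBHP and 3565 ± 749 CPM under TBHP+FGF21 (SD, n = 3), and Pax1 was at 220 ± 9.36 and 319 ± 84.2 CPM, but the defining notochordal genes Tbxt, Shh and Noto had 0 counts in all 6 libraries. The list of markers took in genes of the nucleus pulposus as well as notochordal ones. Of its 18 symbols, aliases included, 9 could be tested, with 4 higher and 5 lower. Krt8 had a log2 fold change of -0.43 without overlap, against 0.40 for Acan and 0.54 for Pax1. Without F2, edgeR called 4 of these genes higher and 0 lower, where 3.78% of all genes were called higher and 3.72% lower. The 4 were Pax1 (log2 fold change 0.75), Acan (0.54), Sox9 (0.75) and Foxf1 (0.42), which are not among the defining notochordal genes named above. Krt8, Cd24 and Car3 were then at -0.48, -0.26 and -0.84 and were not called. Col2a1 had at most 14 counts in a library, so these markers do not settle the identity of the cells. The fibroblast collagen Col1a1 stood at 39942 ± 2223 CPM and 34931 ± 6335 CPM, but its partner Col1a2 had at most 17 counts in a library.

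Immediate-early genes work as a relay. A receptor signal runs through the ERK kinase cascade to factors already bound at the promoters, chiefly serum response factor (SRF) with its ternary complex partners at the CArG box and CREB at the cAMP response element, and transcripts appear within minutes and decay soon after. Some products, such as the EGR and KLF zinc finger proteins, are transcription factors that carry the signal to later genes, while others, such as ZFP36 and the BTG2 adaptor of the deadenylase complex, shorten the life of messenger RNAs.

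The promoters of 4 members are shown because they hold the SRF, CREB or EGR motifs by which this class of genes is known. Sequences are from RefSeq on build GRCr8, 5′ to 3′ on the strand of the gene, 250 bases before and 50 bases after the annotated start, and capitals mark matches to the CArG box, the cAMP response element TGACGTCA or its shorter form TGACG, and the EGR sites GCGGGGGCG and GCGTGGGCG on either strand. Each TGACGTCA also contains a TGACG on both strands.
Egr1 promoter, chr18:26736828-26737127, plus strand: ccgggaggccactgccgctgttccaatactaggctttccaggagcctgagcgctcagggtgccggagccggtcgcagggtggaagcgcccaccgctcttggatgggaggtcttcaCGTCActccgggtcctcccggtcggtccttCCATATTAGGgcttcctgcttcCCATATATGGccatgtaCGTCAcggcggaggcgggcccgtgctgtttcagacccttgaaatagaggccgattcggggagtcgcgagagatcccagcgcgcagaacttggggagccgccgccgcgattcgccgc
Egr2 promoter, chr20:21054392-21054691, minus strand: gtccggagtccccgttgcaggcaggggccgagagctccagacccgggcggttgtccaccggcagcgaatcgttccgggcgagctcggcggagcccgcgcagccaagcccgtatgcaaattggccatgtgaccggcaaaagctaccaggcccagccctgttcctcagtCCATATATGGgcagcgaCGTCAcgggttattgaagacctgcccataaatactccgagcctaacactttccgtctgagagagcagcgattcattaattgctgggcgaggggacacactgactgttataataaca
Btg2 promoter, chr13:48087641-48087940, minus strand: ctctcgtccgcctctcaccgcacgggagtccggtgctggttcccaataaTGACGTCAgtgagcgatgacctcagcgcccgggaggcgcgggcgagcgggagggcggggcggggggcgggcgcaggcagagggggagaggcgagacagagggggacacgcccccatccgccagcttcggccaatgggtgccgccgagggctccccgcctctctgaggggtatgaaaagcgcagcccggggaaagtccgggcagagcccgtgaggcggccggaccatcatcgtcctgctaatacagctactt
Zfp36 promoter, chr1:92799059-92799358, minus strand: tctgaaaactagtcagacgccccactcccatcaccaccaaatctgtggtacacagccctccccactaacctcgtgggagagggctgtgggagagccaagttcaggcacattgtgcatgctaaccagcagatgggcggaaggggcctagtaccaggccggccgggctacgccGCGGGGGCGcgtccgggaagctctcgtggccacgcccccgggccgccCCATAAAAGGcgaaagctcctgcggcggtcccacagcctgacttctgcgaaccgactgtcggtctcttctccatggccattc

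The Egr1 promoter held 2 CArG boxes, CCATATTAGG at position -105 and CCATATATGG at -83, and TGACG on the reverse strand (CGTCA as printed) at -135 and at -66. Egr2 carried the same letters, CCATATATGG at -83 and CGTCA at -66, so that both motifs had the same spacing in both Egr genes. In RefSeq the start used for Egr2 lies inside the span of the gene, downstream of its outermost annotated end. Btg2 had no CArG box and a full TGACGTCA at -201, and Zfp36 had the EGR site GCGGGGGCG at -79 and a CArG box, CCATAAAAGG, at -32. Over all 33469 promoters of this length, 1.64% held a CArG box, 1.83% TGACGTCA, 21.2% TGACG, 2.73% GCGGGGGCG and 0.544% GCGTGGGCG. Klf4, the other member with counts and a promoter sequence, had none of these letters in its window, but the start used for it also lies inside the span of its gene, so the window is not at the outermost start. These are matches of letters only and no binding was measured.

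Of the 3 EGR transcription factors, Egr1 was the one whose groups did not overlap. Egr1, which binds GC-rich promoter sites and is induced by growth factors in most cell types, was at 335, 327 and 360 CPM in T1, T2 and T3 and at 526, 411 and 417 CPM in F1, F2 and F3. All 3 values under FGF21 were above the highest under TBHP, and F1 lay above all others. The means were 341 ± 17.4 and 451 ± 65.1 CPM (SD, n = 3), a fold of 1.32 and a log2 fold change (log2FC) of 0.41 with a standard error (SE) of 0.11, an unadjusted p = 0.00345 and an adjusted p = 0.553 in edgeR's quasi-likelihood test. Without F2 the log2FC was 0.48 (adjusted p = 0.0158), and without F1 it was 0.29. The raw counts behind these levels, 6002 to 11110 per library, make Egr1 the member with the most reads.

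Egr2, also called Krox20 and known for its part in myelination and hindbrain patterning, was at 32.3, 31.1 and 31.3 CPM in T1 to T3 and at 30.1, 33.6 and 21.3 CPM in F1 to F3. A single library, F3, was low, and the other 5 lay between 30.1 and 33.6 CPM. The log2FC of -0.15 (SE 0.15, adjusted p = 0.711 by edgeR) turned to 0.023 without that library and was -0.29 without F2 (adjusted p = 0.208). Egr3, a relative known from muscle spindles and lymphocytes, had 44 to 73 counts per library. Its levels were 3.41, 2.68 and 2.06 CPM in the TBHP group and 3.46, 2.63 and 3.18 CPM in the TBHP+FGF21 group, which overlapped, and the log2FC was 0.20 (SE 0.23, adjusted p = 0.766 by edgeR), or 0.31 without F2 (adjusted p = 0.478). It rested on single libraries, with 0.039 without T3 and 0.39 without T1. The difference between Egr1 and either of these genes was not tested.

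Btg2, an antiproliferative p53 and growth factor target whose protein recruits the CCR4-NOT deadenylase, had the profile nearest to that of Egr1 among the measured members. It was at 109, 99.98 and 104 CPM in T1 to T3 and at 157, 132 and 125 CPM in F1 to F3. Again the groups did not overlap and F1 was highest. The means were 104 ± 4.31 and 138 ± 16.8 CPM (SD, n = 3), a fold of 1.32 and a log2FC of 0.41 (SE 0.10, unadjusted p = 0.00197, adjusted p = 0.553 by edgeR). It was 0.44 without F2 (adjusted p = 0.0193) and between 0.31 and 0.48 over all libraries left out in turn.

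Csrnp1, which encodes a nuclear protein of the cysteine- and serine-rich family, had tight replicates. Its levels were 39.7, 38.5 and 38.0 CPM in the TBHP group and 47.7, 46.1 and 52.2 CPM in the TBHP+FGF21 group. The lowest library with FGF21 was above the highest without it, and here F3 rather than F1 was highest. The means of 38.7 ± 0.858 and 48.7 ± 3.15 CPM (SD, n = 3) gave a fold of 1.26 and a log2FC of 0.33 (SE 0.09, unadjusted p = 0.00385, adjusted p = 0.553 by edgeR). Without F2 it was 0.38 (adjusted p = 0.0371), while with any other library left out the adjusted p of Egr1, Btg2 and Csrnp1 lay between 0.241 and 0.982.

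Klf4, the Krüppel-like zinc finger factor known from epithelial differentiation and reprogramming to pluripotency, did not share this pattern. It was at 83.5, 74.9 and 85.9 CPM in T1 to T3 and at 72.5, 79.8 and 72.5 CPM in F1 to F3. The groups overlapped through T2 and F2, and the log2FC was -0.12 (SE 0.09, adjusted p = 0.660 by edgeR), or -0.16 without F2 (adjusted p = 0.366). Zfp36, which encodes tristetraprolin, a protein that binds AU-rich elements and hastens the decay of cytokine transcripts, hardly varied. Its levels were 34.2, 33.1 and 34.6 CPM in the TBHP group and 34.7, 33.7 and 35.1 CPM in the TBHP+FGF21 group, with a log2FC of 0.03 (SE 0.09, adjusted p = 0.930 by edgeR).

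Ier3, also called IEX-1, a stress- and growth-factor-induced regulator of cell survival, was the member whose mean under FGF21 lay furthest below that of the TBHP group, and the one with the widest fitted spread between libraries. It was at 214, 186 and 147 CPM in T1 to T3 and at 123, 183 and 92.6 CPM in F1 to F3. F2 lay among the TBHP libraries, and F1 and F3 lay below all of them. The means were 182 ± 34.0 and 133 ± 45.8 CPM (SD, n = 3), a fold of 0.729 and a log2FC of -0.46 (SE 0.21, unadjusted p = 0.0469, adjusted p = 0.553 by edgeR). This value depended on single libraries. It was -0.75 without F2 (SE 0.14, adjusted p = 0.00496) and -0.24 without F3, and the adjusted p ran from 0.266 to 0.982 with any library other than F2 left out.

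**Figure D1:**
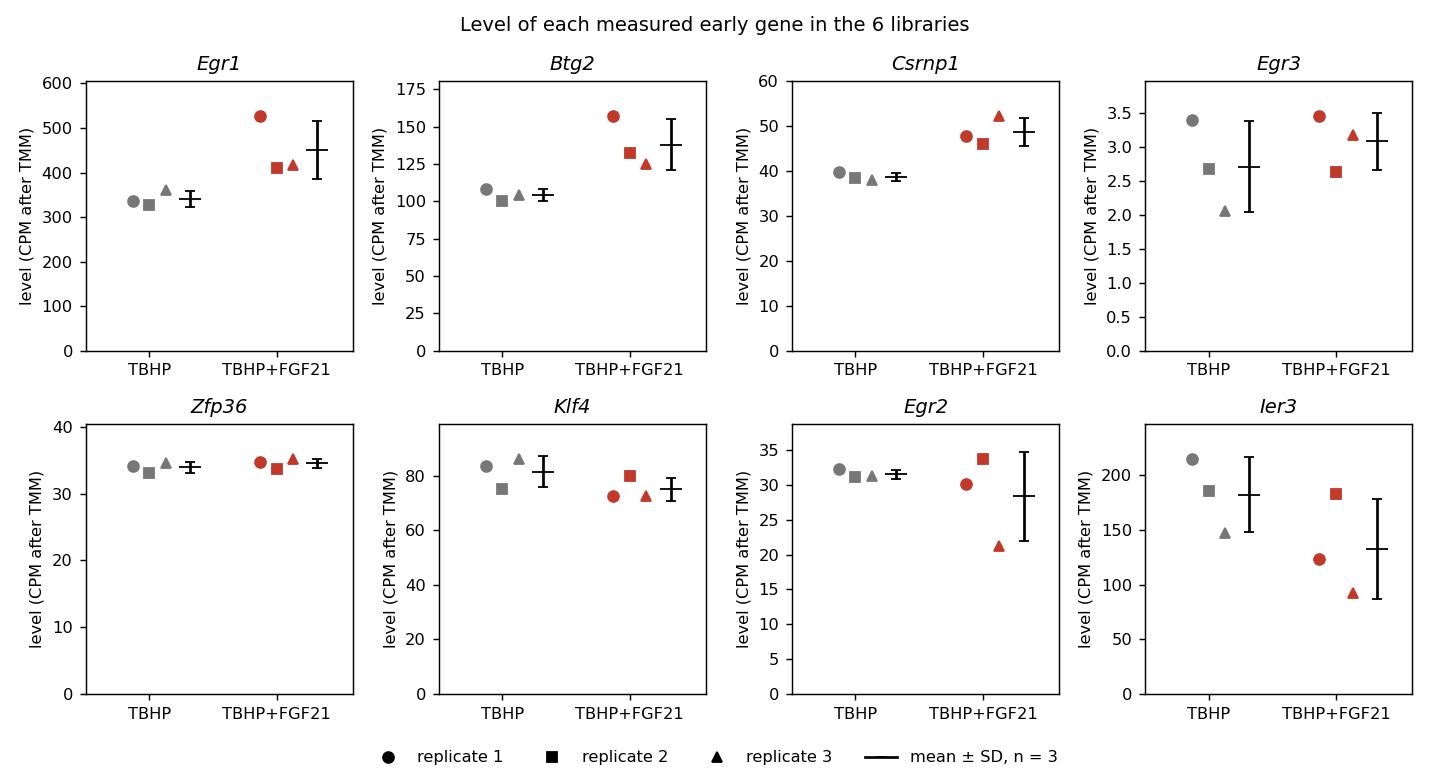
Level of each measured early gene in the 6 libraries, in CPM after TMM normalization on a linear axis from 0, with points for libraries, shapes for replicate numbers and bars for the mean ± SD (n = 3). Egr1, Btg2 and Csrnp1 do not overlap between the groups, F3 sets the low mean of Egr2, and Ier3 in F2 (183 CPM) sits within the TBHP range of 147 to 214 CPM.

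Counted together, 0 of the 8 measured members had an adjusted p under 0.05 by edgeR's quasi-likelihood test, where 1 of 11426 genes (0.00875%) did. At an unadjusted p under 0.05 there were 4 members, Egr1, Btg2 and Csrnp1 higher and Ier3 lower, where 8.92% of all genes passed, 4.63% higher and 4.29% lower. The groups did not overlap for 3 members, all higher under FGF21, against 9.90% of all genes, where 4.90% had the TBHP+FGF21 group higher. DESeq2's Wald test and limma-voom also called 0 members, with 3 and 4 of them at an unadjusted p under 0.05. The log2FC was above 0 for 5 members, against 48.9% of all genes, and its median was 0.11, against -0.0052 over all genes, and ran from 0.043 without T3 to 0.20 without T1 as libraries were left out in turn. Because the members were picked from this comparison, these counts describe them and support nothing further.

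Without F2, 4 of the 8 members had an adjusted p under 0.05 by edgeR (Egr1, Btg2 and Csrnp1 higher, Ier3 lower), where 7.50% of 11559 genes did, 3.78% higher and 3.72% lower, and the median of the members was 0.18. The call therefore rests on whether this library, which resembled the TBHP libraries over the whole transcriptome, is counted in its group. F2 lay above every TBHP library for Egr1, Btg2 and Csrnp1, and for Ier3 it did not lie below them. Since F2 was left out for its likeness to the TBHP libraries, larger differences without it are partly built in. The adjusted p also depends on how many other genes pass. This was 1 of 11426 with all libraries and 867 of 11559 without F2. For Csrnp1 the log2FC rose from 0.33 to 0.38 and its SE from 0.0924 to 0.105. Without T3, edgeR called 0 members, 4 had an unadjusted p under 0.05, and the log2FC was 0.46 for Egr1, 0.41 for Btg2, 0.32 for Csrnp1, -0.58 for Ier3, -0.15 for Egr2, -0.07 for Klf4 and 0.05 for Zfp36.

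**Figure D2:**
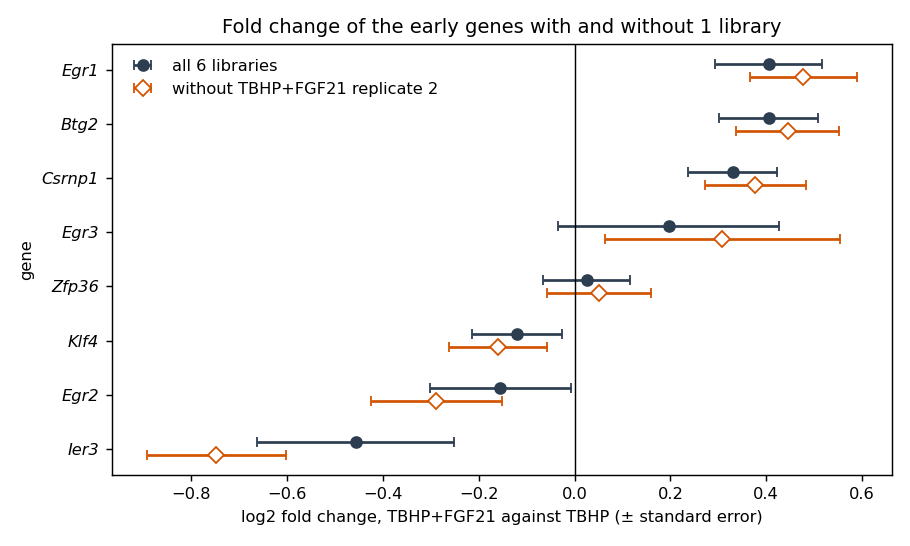
Log2 fold change of each early gene, TBHP+FGF21 against TBHP, with bars of 1 SE, from all 6 libraries (filled circles) and without F2 (open diamonds). Every gene keeps its side of 0, and the distance from 0 grows for all 8, most for Ier3, which moves from -0.46 to -0.75.

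The members also differed in how much they varied between libraries of a group. Measured as the biological coefficient of variation fitted by edgeR, where the median over all genes was 0.111, Zfp36 (0.0844, percentile 1.57 of all genes tested) and Csrnp1 (percentile 3.91) were among the steadiest transcripts. Ier3 was at 0.180 (percentile 89.4) and Egr3 at percentile 82.2. Egr1 (percentile 42.9) and Btg2 (percentile 27.9) were below the middle. A difference of a given size was thus more readily tested in Zfp36 or Csrnp1 than in Ier3 or Egr3.

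The pattern over the 6 libraries differed among the members. As a measure of likeness, each gene's log2(CPM + 0.5) was standardised over the libraries and the root mean square distance between genes was taken, where 0 means the same profile and 1.83 a mirror image. Egr1 and Btg2 were 0.228 apart, and the distances among Egr1, Btg2 and Csrnp1 ran from 0.228 to 0.629. Egr2, Ier3 and Klf4 were 0.492 to 0.840 apart, with Egr2 and Ier3 the nearest pair. Between these 2 sets the distances were 1.39 to 1.70. Part of this follows from the members' own group differences, all points share the same 6 libraries, and no test was made.

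**Figure D3:**
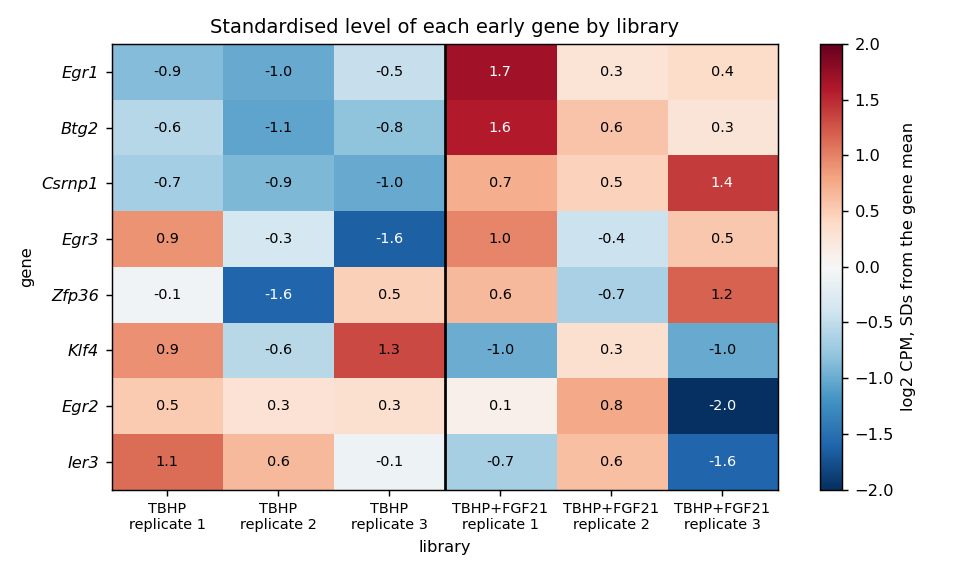
Standardised log2 level of each early gene (rows) in each library (columns), in SDs from the mean of the gene, with a line between the TBHP and TBHP+FGF21 groups. Egr1, Btg2 and Csrnp1 are below their means in all TBHP libraries and above them in all TBHP+FGF21 libraries, while Ier3, Egr2 and Klf4 have their lowest values in F3 (for Klf4 nearly the same in F1) and are above their means in F2.

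The closest relatives of the members were compared in the same fit. NAB1 and NAB2 are the co-repressors that bind EGR proteins, and Nab2 is itself an EGR target. Nab1 was at 76.7, 74.4 and 82.1 CPM in T1 to T3 and at 70.0, 73.3 and 71.1 CPM in F1 to F3, without overlap and with a log2FC of -0.12 (SE 0.09, adjusted p = 0.634 by edgeR). Nab2 was at 142 ± 15.9 and 160 ± 15.6 CPM (SD, n = 3), a log2FC of 0.17 (SE 0.11). Egr4 and Wt1, a zinc finger factor with a similar binding site, had at most 2 and 1 counts in a library and were not tested.

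Among the other Klf genes, 11 of 15 listed were tested, with 7 higher and 4 lower, a median log2FC of 0.03 and 1 at an unadjusted p under 0.05. That gene was Klf12, a repressor of the family, at 10.4 ± 2.74 and 14.8 ± 1.28 CPM (SD, n = 3), a log2FC of 0.51 (SE 0.17, unadjusted p = 0.0124 by edgeR, adjusted p = 0.553). Klf11, a TGF-beta-induced factor, was at 14.7, 13.7 and 12.5 CPM in T1 to T3 and at 17.6, 14.9 and 15.9 CPM in F1 to F3, a log2FC of 0.24 (unadjusted p = 0.0722 by edgeR). Klf6 and Klf10, which like Klf4 are inducible by growth factors, had log2FCs of 0.03 and -0.01. Only Klf12 was called without F2 (log2FC 0.59, adjusted p = 0.0479 by edgeR), where 7.50% of all genes were. With all libraries, 8.92% of all genes had an unadjusted p under 0.05 by edgeR.

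Relatives of the Ier, Btg, Csrnp and Zfp36 genes were mixed as well, with 9 of 10 tested, 4 higher, 5 lower and a median of -0.02. Zfp36l1, a second destabilizer of AU-rich transcripts, was at 66.9, 53.8 and 53.1 CPM in T1 to T3 and at 92.5, 55.2 and 87.1 CPM in F1 to F3. F2 lay within the TBHP range. The log2FC was 0.44 (SE 0.17, unadjusted p = 0.0243 by edgeR, adjusted p = 0.553), and 0.64 without that library (adjusted p = 0.0021). Zfp36 itself was at 0.05 under the same omission. Tob1, an antiproliferative relative of Btg2, had a log2FC of 0.17, whereas Btg1 was at -0.02, Ier5 at 0.00 and Csrnp2 at -0.26, none of them with an unadjusted p under 0.05.

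Beside the members, the AP-1 genes had 4 of 5 tested genes higher, 2 of them at an unadjusted p under 0.05, and a median log2FC of 0.23. Fos was at 13.7 ± 1.35 and 22.3 ± 3.15 CPM (SD, n = 3), a log2FC of 0.70 (SE 0.14), and Fosb at 7.23 ± 0.224 and 9.83 ± 0.277 CPM, a log2FC of 0.44 (SE 0.13). All 3 Nr4a nuclear receptors were higher, with a median of 0.58, led by Nr4a1 at 125 ± 17.2 and 232 ± 84.7 CPM, a log2FC of 0.89 (SE 0.21), and Nr4a3 at 0.58 (SE 0.20). The larger set of 30 other inducible early genes had no common direction, with 12 higher, 18 lower and a median of -0.06. In it Sik1, a CREB-regulated kinase, was at 33.3 ± 2.07 and 52.8 ± 8.31 CPM (log2FC 0.66, SE 0.12), and Per1, a CREB-induced clock gene, at 54.8 ± 5.54 and 83.3 ± 20.0 CPM (log2FC 0.60, SE 0.16). At the lower end, Arc had a log2FC of -0.60 with at most 32 counts in a library, and the stress genes Gadd45g and Gadd45a had log2FCs of -0.58 and -0.41. None of these genes had an adjusted p under 0.05 with all 6 libraries. Over all genes, 8.92% had an unadjusted p under 0.05 by edgeR with all libraries, and 7.50% were called without F2. Without F2, edgeR called 1 of the 5 AP-1 genes, Fos (log2FC 0.69, adjusted p = 0.0085), and 2 of the 3 Nr4a genes, all higher, and of the 30 other inducible genes 4 higher and 3 lower. Gadd45g was then at -1.14 (adjusted p = 2.96e-05 by edgeR) and Gadd45a at -0.63, while Arc, at -0.58, was not called (adjusted p = 0.292).

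**Figure D4:**
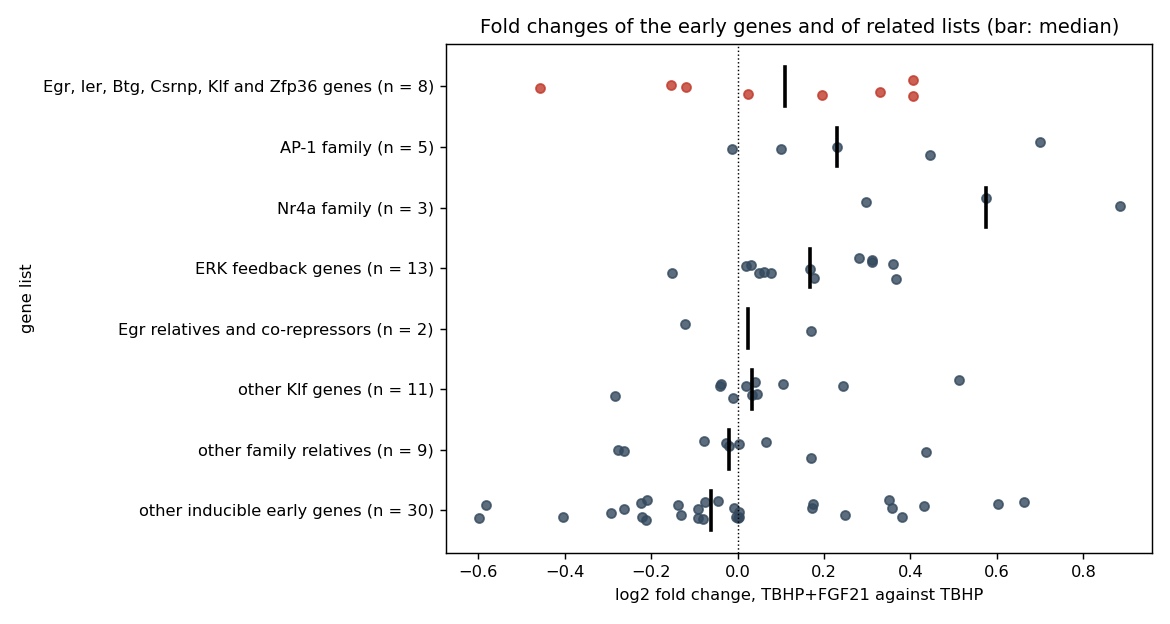
Log2 fold change of each tested gene, TBHP+FGF21 against TBHP, for the Egr, Ier, Btg, Csrnp, Klf and Zfp36 members (red, n = 8) and for related lists (grey), with a bar at the median of each list. The members spread from -0.46 to 0.41, the Nr4a genes are all to the right of 0, and the other inducible early genes lie on both sides with a median of -0.06.

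Transcripts of the ERK pathway, by which this class of genes is known to be induced, were read as well. They do not show kinase activity, and whether ERK acted on the members here was not tested. ERK feedback genes, the phosphatases, Sprouty proteins and ETS factors that ERK induces, were higher for 12 of 13 tested, with 3 at an unadjusted p under 0.05 and a median log2FC of 0.17. The leading ones were Dusp5, at 72.1 ± 7.73 and 92.4 ± 15.0 CPM (log2FC 0.36, SE 0.12), and Dusp7, at 56.2 ± 2.76 and 72.5 ± 20.7 CPM (log2FC 0.37, SE 0.17). Dusp6, the ERK phosphatase often used as a readout of FGF signaling, was the exception, at 103 ± 2.13 and 92.3 ± 7.16 CPM, without overlap and with a log2FC of -0.15 (SE 0.09, unadjusted p = 0.121 by edgeR). Of 19 tested genes of the ERK cascade, 11 were higher and 8 lower, with Map2k1, which encodes the kinase that activates ERK, at -0.24 (unadjusted p = 0.0281 by edgeR). For SRF and its partners, 3 of 5 tested were higher, Mrtfa at 0.30 (unadjusted p = 0.0452 by edgeR) and Elk1 at 0.15, while Srf was at -0.05. Without F2, edgeR called 3 of the 13 feedback genes, all higher, with Dusp7 at 0.57, 0 of the 19 cascade genes and 1 of the 5 SRF genes, Mrtfa (log2FC 0.43, adjusted p = 0.0347). The share called over all genes without F2 was 7.50%, and 8.92% had an unadjusted p under 0.05 by edgeR with all libraries.

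FGF21 is known to act through FGFR1 joined to the co-receptor beta-Klotho. Fgfr1 was at 138, 121 and 150 CPM in T1 to T3 and at 170, 153 and 193 CPM in F1 to F3, a log2FC of 0.33 (SE 0.11, unadjusted p = 0.0131 by edgeR, adjusted p = 0.553) and of 0.42 without F2 (adjusted p = 0.0280), and Fgfr2 had a log2FC of 0.17 (SE 0.11). Klb, which encodes beta-Klotho, had 0 counts in every library, as had Kl and Fgfr4, so levels up to 0.134 to 0.164 CPM are allowed by this depth.

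Genes known to lie downstream of the members were described in the same way. Of 12 tested EGR1 target genes, 7 were higher and 5 lower with a median log2FC of 0.02, beside 0.41 for Egr1. The 2 with an unadjusted p under 0.05 were both lower, Pdgfa, a mesenchymal growth factor, at 107 ± 6.00 and 79.4 ± 21.4 CPM (log2FC -0.43, unadjusted p = 0.0163 by edgeR) and the tissue factor gene F3 (not the library of that name) at 341 ± 36.6 and 272 ± 60.3 CPM (log2FC -0.33, unadjusted p = 0.0452). Of 7 tested AU-rich transcripts that ZFP36 is known to bind, 6 were lower with a median of -0.34, beside 0.03 for Zfp36 itself. The prostaglandin synthase gene Ptgs2 was at 303 ± 2.98 and 212 ± 63.8 CPM (log2FC -0.51, unadjusted p = 0.0101 by edgeR) and the chemokine gene Ccl2 at 7.22 ± 0.368 and 3.52 ± 2.71 CPM (log2FC -1.04, unadjusted p = 0.0156). The urokinase gene Plau went the other way, at 119 ± 10.9 and 185 ± 63.3 CPM (log2FC 0.64, unadjusted p = 0.00682 by edgeR). Il6 and Il1b, cytokine genes among the known targets, had at most 6 and 2 counts in a library. None of these genes had an adjusted p under 0.05 with all libraries, whereas without F2 edgeR called 1 EGR1 target higher and 2 lower, and 1 AU-rich transcript higher and 4 lower, with Pdgfa at -0.66, F3 at -0.50, Plau at 0.87, Ptgs2 at -0.75 and Ccl2 at -1.87. Over all genes, 3.78% were called higher and 3.72% lower without F2, and 8.92% had an unadjusted p under 0.05 by edgeR with all libraries.

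Markers of other cells were read beside these values. The summed level of the contractile smooth muscle and pericyte list (7 of 8 tested) was 4819 to 5170 CPM in the TBHP group and 3496 to 5049 CPM in the TBHP+FGF21 group, and 3 of its genes were higher and 4 lower with a median log2FC of -0.02. Acta2 and Tagln had log2FCs of -0.46 and -0.47, whereas Des was at 0.26, Pdgfrb at 0.14 and Cspg4 at 0.01. Without F2, edgeR called 1 of its genes higher, Des (0.43), and 3 lower, with Acta2 at -0.76 and Tagln at -0.79, where 3.78% of all genes were called higher and 3.72% lower. The list of notochordal and nucleus pulposus markers, nearly all of it Acan, summed to 2811 to 3264 CPM and 3183 to 4857 CPM. The fibroblast list (9 of 10 tested) summed to 42823 to 47325 CPM and 32555 to 44781 CPM. In it Pdgfra was at 0.39 and Scx at -0.39, or 0.58 and -0.60 without F2, when both were called. The macrophage list (2 of 10 tested) summed to 31.9 to 37.6 CPM and 26.4 to 32.8 CPM, nearly all of it Cd14, with Ptprc, Adgre1, C1qa, C1qb and Tyrobp at 0 counts. Of the endothelial list Cldn5 alone was tested, and Cdh5, Kdr, Tie1 and Emcn had 0 counts. The part of the moving lists in the early gene values was not tested, and in bulk RNA fewer cells of a type and less RNA per cell cannot be told apart.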

How the data were processed

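RNA-seq was performed on 6 libraries of rat NPCs (poly-A selected RNA, a kit that marks strand). Per library, the authors deposited whole read counts by Ensembl identifier, once without regard to strand and once for each strand, together with a combined table of raw counts by gene symbol. The submitters' processing notes name STAR and featureCounts, and the genome build and annotation are not given in the sources used here. The combined table was classed as estimated counts because 22 of its deposited rows are not whole, and these were rounded up. Of 14882 rows with a count, 14859 were identical to a row of the per-sample files, and all 8 members matched 1 Ensembl identifier each in this way (Egr1 ENSRNOG00000019422, Egr2 ENSRNOG00000000640, Egr3 ENSRNOG00000017828, Ier3 ENSRNOG00000000827, Btg2 ENSRNOG00000003300, Csrnp1 ENSRNOG00000033433, Klf4 ENSRNOG00000016299, Zfp36 ENSRNOG00000058388). The 1 gene called over all genes, Sirt1, matched none. The strand columns were nearly even (ratio 0.977 to 0.986 per library, and 41.1% to 54.7% of the reads of a member in the second), so reads from overlapping antisense genes cannot be told apart.

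Groups were taken from the deposited titles. The comparison used edgeR 4.0.16 in R 4.3.3 with TMM normalization, genes kept by filterByExpr with at least 10 counts (15 in total), condition as the sole term, the quasi-likelihood F test and p-values adjusted by Benjamini-Hochberg over all 11426 genes (threshold 0.05). The standard error was taken from the log2 fold change and F as their ratio, with F under the root. Levels are CPM after TMM. The paper's methods name no count model for these libraries. Fits were tested on simulated counts. Alternatives were the per-sample counts, DESeq2 size factors, no TMM factor, DESeq2 1.42.0 with its Wald test, voom from limma 3.58.1, other filters, the replicate number as a block, and leaving out each library. No pair of libraries (15 pairs) agreed within sampling noise, with a chi-square of 6.94 to 58.4 per gene. The design text calls the samples biological replicates without saying whether they came from separate animals, so p-values measure the spread between these samples. Limits from counts cover counting error only.

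The members and all gene lists were chosen with earlier results of these data known. Named were all members, their relatives by family, 2 or more genes with the smallest unadjusted p of each other list, genes whose lack of counts or opposite direction a sentence turns on, which were chosen after their values were seen, and the 5 genes nearest to the mean profile of the members. The value of 1 gene that this rule named is not reported here. Promoter sequences were found in RefSeq for 6 of the 10 members, 5 of them with counts.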

Additional observations from a re-analysis of the deposited data

How the results depend on the processing

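Over 15 alternatives each, Egr1, Btg2, Csrnp1, Egr3 (0.039 to 0.39) and Zfp36 stayed higher and Ier3 and Klf4 lower, while Egr2 ran from -0.29 to 0.023 with 1 library left out and was above 0 without F3 only. Across the alternatives that kept all libraries, the log2 fold changes ran from 0.40 to 0.43 for Egr1 and for Btg2, from 0.33 to 0.37 for Csrnp1 and from -0.50 to -0.44 for Ier3, and the lowest adjusted p among members was 0.103, for Btg2 in edgeR with the replicate number as a block. The number of members called was 0 in all of these, with 3 to 4 at an unadjusted p under 0.05, and 0 to 4 with 1 library left out, where 4 was reached without F2 only. Over all genes, 1 gene was called with edgeR, against 0 with the per-sample unstranded counts (1082 at an unadjusted p under 0.05), 0 with the strand column (1049), 0 with limma-voom (996), 4 with the Wald test of DESeq2 (912), 5 with no filter on low counts (1438) and 0 to 867 with 1 library left out. The 867 came without F2. The cause was not tested.

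Whether the replicate numbers pair the samples could not be decided from 3 libraries per group. The deviations of same-numbered libraries correlated at -0.14, 0.27 and 0.18 for numbers 1, 2 and 3, and TBHP replicate 1 was closest to replicate 2 of the other group (0.10). With the replicate number as a block, 2 genes were called over all genes and 0 members, with 4 members at an unadjusted p under 0.05. Over all genes, 1599 had an unadjusted p under 0.05 in this edgeR fit, against 1019 without the block. At 44 to 73 counts per library, Egr3 was the member whose precision was most limited by depth.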

Other observations

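The 5 genes outside the members whose profile over the 6 libraries was nearest to the mean standardised profile of the 8 measured members were Phf2, a histone demethylase gene (distance 0.578), Rbm15b, Id4, Repin1 and Zfp865 (distance 0.591). Their log2 fold changes ran from 0.08 to 0.22, so none moved as far as Egr1 or Ier3, and the mean profile was itself flat because members of opposite direction cancel in it. Genes were scaled to the same SD but this mean was not. These distances therefore have a lower limit and are not comparable with those between genes.

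After these values had been seen, the genes nearest to Egr1 and to Ier3 were also listed. Nearest to Egr1 were Tmtc1 (distance 0.176, log2 fold change 0.57), Bin3 (0.14), Rab11fip1 (0.26), Asxl1 (0.20) and Ppil6 (distance 0.204, log2 fold change 0.62). Ppil6 was low, at means of 0.41 CPM under TBHP and 0.63 CPM under TBHP+FGF21, and its fold change had an SE of 0.38. Tmtc1 was at 4.61 and 6.86 CPM (SE 0.18). Nearest to Ier3 were Luc7l (distance 0.0863, log2 fold change -0.21), Rab33b (-0.30), Cox6a2 (-0.81), Mfap5 (-0.23) and Ywhag (distance 0.155, log2 fold change -0.16). With 6 libraries and 11426 genes, many profiles come close, and these likenesses are a description only.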
